A study of Canis lupus familiaris with 7 samples.

Results

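RNA of macrophage genes was compared between canine osteosarcomas that had lost DLG2 and those that had kept it. Of 10 genes that mark macrophages, 8 had probes on the array under their own symbol (CD163, MSR1, MRC1, C1QA, CSF1R, CD68, AIF1 and TYROBP), 11 probes of the 43603 on the array. CD14 and C1QB were not found among the probe symbols and were not analysed here. Probes were assigned to the members by gene symbol alone. The members themselves were chosen with earlier results of these data known. All 11 probes were well above local background on all 7 arrays.

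The tumours were primary canine osteosarcomas, a malignant bone tumour, with 1 array for each tumour and 1 tumour for each dog. The DLG2 deleted group held 4 tumours, from a Mixed Breed (German Shepherd/Collie/X) (8 years, tumour 1), a Rottweiler X (9 years, tumour 2), a Greyhound (6 years, tumour 3) and a Great Pyrenees (7 years, tumour 4). The DLG2 wild-type group held 3 tumours, from a Boxer (12 years, tumour 1), a Mixed Breed (Labrador Retriever/X) (10 years, tumour 2) and a Bull Mastiff (8 years, tumour 3). Breed therefore differed from tumour to tumour, and the tumours were naturally occurring ones with whatever host cells each piece held. Ages ran from 6 to 9 years in the deleted group and from 8 to 12 years in the wild-type group. Age and DLG2 status were thus partly confounded. The replicates were separate dogs.

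Macrophages are phagocytes of the innate immune system that enter tumours as blood monocytes or live in the tissue, and in bone they share a precursor with osteoclasts, the cells that resorb bone. They depend on signalling through CSF1R, take up haemoglobin, modified lipoproteins and glycoproteins through scavenger and lectin receptors such as CD163, MSR1 and MRC1, and make complement C1q. In bone tumours they are among the common host cells, and CD163 and MRC1 are often used to label macrophages with a tissue-repair phenotype. Because RNA of whole tumour pieces was measured, fewer macrophages and less RNA per macrophage cannot be told apart.

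The probe sequences are shown for the receptors and for C1QA and CD68, because the tumour patterns described below rest on these short stretches of each transcript. Both probes are given for CD163 and CSF1R, where 2 separate stretches of the same transcript were measured. Each probe is 60 bases long and is written 5′ to 3′ as the files give it, with no base set in capitals because no stretch was singled out.
CD163 A_11_P051196: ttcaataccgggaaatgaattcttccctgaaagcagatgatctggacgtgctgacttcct
CD163 A_11_P066351: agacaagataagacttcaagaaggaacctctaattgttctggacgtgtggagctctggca
MSR1 A_11_P0000027265: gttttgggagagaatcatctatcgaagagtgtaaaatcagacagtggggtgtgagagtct
MRC1 A_11_P0000030770: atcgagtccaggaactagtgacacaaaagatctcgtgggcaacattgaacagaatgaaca
C1QA A_11_P0000023402: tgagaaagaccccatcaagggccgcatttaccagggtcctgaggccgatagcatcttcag
CD68 A_11_P0000032672: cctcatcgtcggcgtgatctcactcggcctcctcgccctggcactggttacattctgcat
CSF1R A_11_P0000032429: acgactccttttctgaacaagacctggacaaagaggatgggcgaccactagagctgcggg
CSF1R A_11_P156148: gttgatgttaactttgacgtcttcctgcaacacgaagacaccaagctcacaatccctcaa

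By the coordinates of the files, on the canFam2 build, the CD163 probes lie at chr27:40725001-40725060 and chr27:40722672-40722729. The MSR1 probe lies at chr16:42395476-42395535, the MRC1 probe at chr2:21924297-21924356 and the C1QA probe at chr2:79560787-79560846. The files list these 3 in descending order and the other 8 member probes in ascending order, and give the strand in no other way. The CD68 probe lies at chr5:35498642-35498701. The CSF1R probes span 186 bases (chr4:62209979-62210164) and 727 bases (chr4:62191030-62191756), longer than a probe, so each matches the genome in separate pieces. The AIF1 probes lie at chr12:4109274-4109333 and chr12:4108833-4109196, and the TYROBP probe at chr1:119669388-119669447. Exon and untranslated region were not analysed here, since no genome or annotation of this build was used.

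None of the macrophage genes differed by DLG2 status beyond the spread between tumours. Of the 11 probes, 0 passed the threshold (limma, unadjusted p below 0.05 and Benjamini-Hochberg adjusted p below 0.1 over all probes), and over all 32309 probes tested 0 passed as well, a percent called of 0. The smallest adjusted p over all probes was 0.103. At an unadjusted p below 0.05 alone there were 0 of the 11 probes, against 7.34% of all probes, and 0 member probes had groups that did not overlap, against 8.16% of all probes. The methods' t-test, run without the authors' normalization and batch correction, also gave 0 calls. It gave 2244 probes at an unadjusted p below 0.05. The member genes' median log2 difference (deleted minus wild type, 1 probe for each gene) was -0.17, with 3 genes higher and 5 lower, beside 0.02 over 10140 genes tested. Under other scalings and backgrounds it lay between -0.34 and 0.12. The 0.12 was found with the background as given at 75th percentile scaling, where the median over all genes was 0.22. The values of adjusted p ranged from 0.791 to 0.989 over the 11 probes, and the exact permutation test over the 35 splits of 7 tumours gave p from 0.229 to 1 (two-sided; the smallest it allows is 0.0571).

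The genes spread widely from tumour to tumour, and the spread within a group was wide for most of them but not for C1QA and MRC1 in wild-type tumours, with SDs of 0.09 and 0.24. Over the 7 tumours the highest and lowest log2 intensity lay 1.84 (MSR1) to 3.80 (CD163) apart, a 3.58-fold to 13.9-fold range in intensity. Replicate spots within an array had a median SD of 0.07 to 0.10 on the same scale. The SD over 7 tumours of each gene's brightest probe was larger than in 91.8% (MRC1) to 99.2% (CD163) of all tested probes, whose median SD was 0.29. The second CSF1R probe was the least variable member probe, at the 81.3 percentile.

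**Figure D1:**
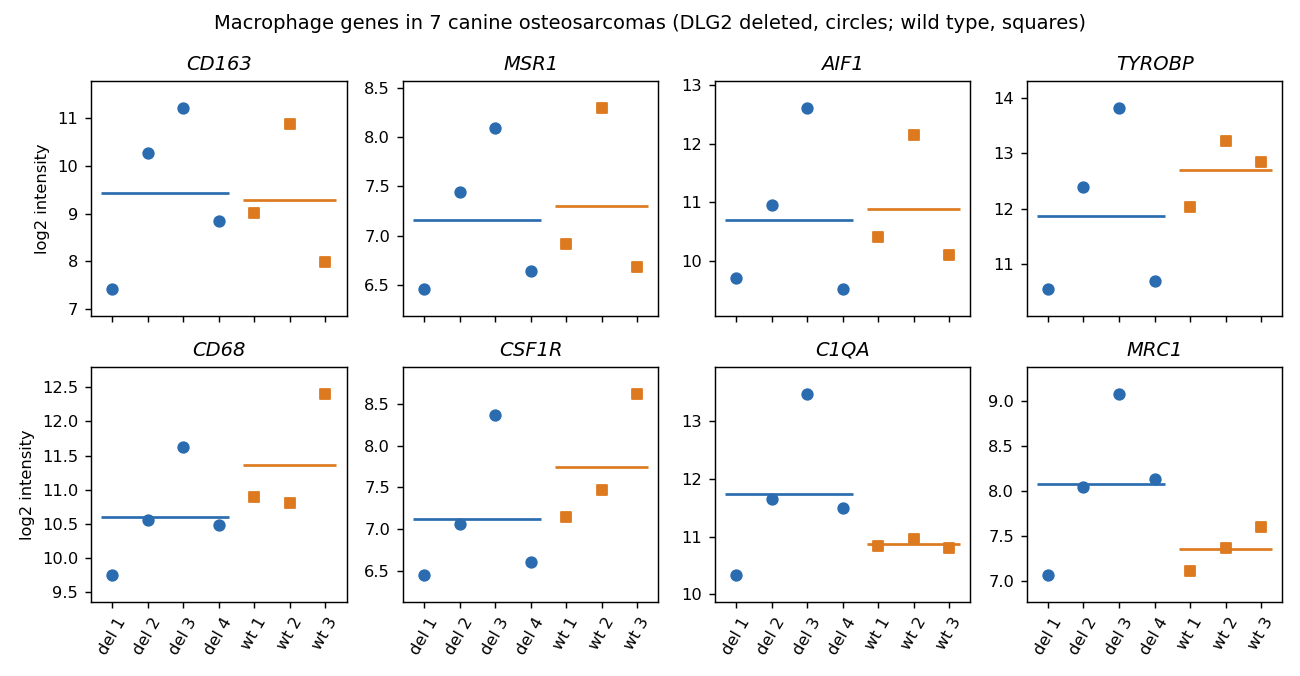
Log2 intensity (vertical axis, quantile-normalized, a separate scale for each gene) of the brightest probe of 8 macrophage genes in each tumour (horizontal axis). Points are single tumours (circles DLG2 deleted, n = 4; squares wild type, n = 3) and lines are group means. The groups overlap in all 8 panels, and deleted tumour 3 is the highest point for CD163, AIF1, TYROBP, C1QA and MRC1.

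CD163 is the scavenger receptor that takes up haemoglobin bound to haptoglobin and is largely restricted to monocytes and macrophages. Its brightest probe, printed on the array as 5 spots, read 7.41, 10.27, 11.21 and 8.85 (log2 intensity) in the deleted group. The wild-type tumours read 9.01, 10.87 and 7.98. Here and below the values of a group follow its tumour numbers. Each group thus held both high and low tumours: deleted tumours 2 and 3 and wild-type tumour 2 lay above 10, and deleted tumour 1 was the lowest of all. The group means were 9.44 ± 1.66 (SD, n = 4, deleted) and 9.29 ± 1.46 (SD, n = 3, wild type), and they differed by 0.15 (SE 1.03, limma adjusted p = 0.989). The 95% interval of that difference ran from -2.31 to 2.60. The second probe differed by 0.12 (SE 0.85), and over the 7 tumours the pair had a Pearson r of 0.99.

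MSR1, the class A scavenger receptor for modified lipoproteins, was highest in the same 2 tumours as CD163, in the opposite order. Its log2 intensity was 6.45, 7.44, 8.09 and 6.64 in deleted tumours and 6.91, 8.29 and 6.68 in wild-type tumours. Wild-type tumour 2 and deleted tumour 3 were the only tumours above 8. The group means were 7.15 ± 0.76 (SD, n = 4) and 7.30 ± 0.87 (SD, n = 3). They differed by -0.14 (SE 0.53, 95% interval -1.40 to 1.12), and by -0.48 to 0.41 under other scalings and backgrounds.

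MRC1, the mannose receptor, was the member with the largest difference relative to its error. Its values were 7.06, 8.04, 9.08 and 8.13 in deleted tumours and 7.11, 7.36 and 7.60 in wild-type tumours. Deleted tumours 2, 3 and 4 lay above every wild-type tumour, while deleted tumour 1 lay below all of them. The difference was 0.72 (SE 0.44, limma adjusted p = 0.791), a 1.65-fold ratio with a 95% log2 interval of -0.31 to 1.76. Without deleted tumour 3 it was 0.39, and without deleted tumour 1 it was 1.06 (limma unadjusted p = 0.015, adjusted p = 0.545). With age as a covariate it was 0.13 (limma unadjusted p = 0.809, adjusted p = 0.993).

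C1QA codes for a chain of C1q, the recognition molecule of the classical complement pathway, which macrophages make. It read 10.33, 11.66, 13.48 and 11.50 in deleted tumours, and 10.84, 10.96 and 10.80 in wild-type tumours. The wild-type tumours lay within a narrow band, with an SD of 0.09 against 1.30 in the deleted group, and the deleted tumours lay on both sides of it. The difference was 0.88 (SE 0.66, limma adjusted p = 0.856, 95% interval -0.69 to 2.44). It was 0.30 without deleted tumour 3 and 1.35 without deleted tumour 1 (limma unadjusted p = 0.046, adjusted p = 0.630). With age as a covariate it was 0.26 (limma unadjusted p = 0.782, adjusted p = 0.992). C1QC, the partner chain, was looked up after these values were seen. It read 11.57, 12.47, 14.00 and 12.24 in deleted tumours and 12.10, 11.66 and 11.99 in wild-type tumours, again highest in deleted tumour 3 and lowest in deleted tumour 1.

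CSF1R is the receptor for the growth factors CSF1 and IL34 on which macrophages depend. Its brighter probe read 6.45, 7.05, 8.37 and 6.61 in deleted tumours and 7.15, 7.47 and 8.62 in wild-type tumours. Wild-type tumour 3 and deleted tumour 3 stood above the rest. Its difference was -0.63 (SE 0.55, limma adjusted p = 0.885, 95% interval -1.93 to 0.67). Under other scalings and backgrounds it lay between -1.29 and -0.15. It was -0.19 without wild-type tumour 3, -1.04 without deleted tumour 3 (limma unadjusted p = 0.045, adjusted p = 0.702) and -1.59 with age as a covariate (limma unadjusted p = 0.027, adjusted p = 0.816). The second probe differed by -0.24 (SE 0.37) and had deleted tumour 3 as its highest at 7.83, with wild-type tumour 3 next at 7.53. The pair of probes had a Pearson r of 0.95.

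CD68 is a lysosomal membrane protein of macrophages that is also abundant in osteoclasts. Its log2 intensity was 9.75, 10.55, 11.62 and 10.49 in deleted tumours and 10.89, 10.80 and 12.40 in wild-type tumours. As with CSF1R, wild-type tumour 3 was highest and deleted tumour 3 second. The difference was -0.76 (SE 0.55, limma adjusted p = 0.846, 95% interval -2.06 to 0.53). It was -0.24 without wild-type tumour 3, -1.10 without deleted tumour 3 and -1.73 with the dog's age as a covariate (limma unadjusted p = 0.018, adjusted p = 0.816).

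TYROBP, also called DAP12, is the ITAM-bearing adaptor that carries the signal of TREM2 and related myeloid receptors. It read 10.54, 12.40, 13.82 and 10.69 in deleted tumours and 12.03, 13.22 and 12.84 in wild-type tumours. The 2 lowest values were those of deleted tumours 1 and 4, yet the highest was that of deleted tumour 3. The difference was -0.83 (SE 0.83, limma adjusted p = 0.900, 95% interval -2.79 to 1.12), a ratio of 0.561. It was the largest in size among the genes that were lower. Without deleted tumour 1 it was -0.39, and without deleted tumour 3 it was -1.48 (limma unadjusted p = 0.043, adjusted p = 0.701).

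AIF1, also called IBA1, is an actin-binding protein of macrophages and microglia. Its brighter probe read 9.72, 10.95, 12.61 and 9.52 in deleted tumours and 10.41, 12.14 and 10.11 in wild-type tumours. Deleted tumour 3 and wild-type tumour 2 were again the pair at the top, and deleted tumour 4 was lowest. The difference was -0.19 (SE 0.85), and the second probe also gave -0.19 (SE 0.77), with a Pearson r of 0.99 between them.

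**Figure D2:**
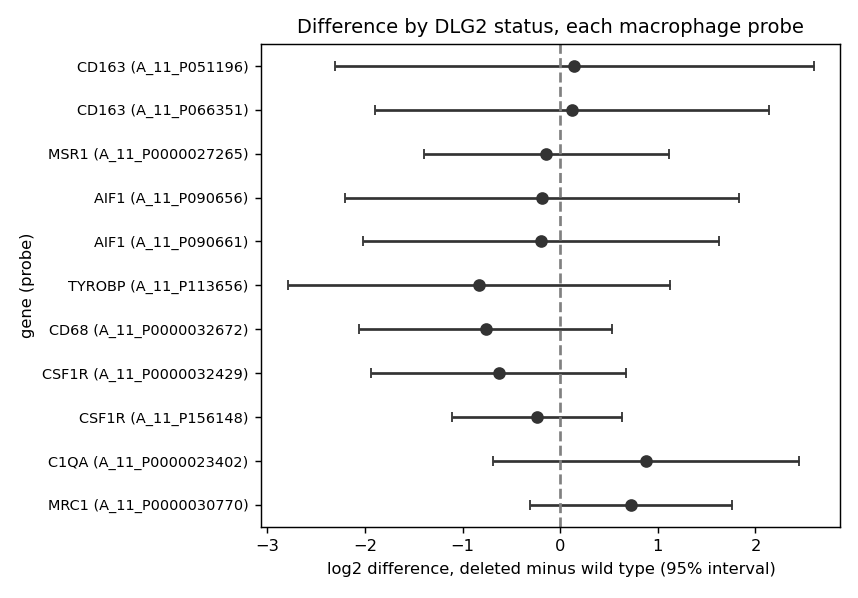
Log2 difference, deleted minus wild type (horizontal axis), for each of 11 macrophage probes (vertical axis). Points are estimates from limma and bars are 95% intervals (4 deleted and 3 wild-type tumours). Every interval includes 0, with estimates from -0.83 (TYROBP) to 0.88 (C1QA).

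Each gene's deviation from its own mean over the 7 tumours was then averaged over the 8 genes. This mean deviation was -1.17, 0.16, 1.40 and -0.58 in the deleted group, and -0.34, 0.51 and -0.00 in the wild-type group. The 2 extremes, deleted tumour 3 and deleted tumour 1, thus both lay in the deleted group. The SD of this mean was 1.11 over the deleted and 0.43 over the wild-type tumours, and a difference in spread was not tested. Deleted tumour 1 was lowest for 7 of the 8 genes, against 2011 of the 10114 genes that every array measured. Deleted tumour 3 was highest for 5 of the 8 genes, 62.5%, against 14.8% of the 10114 genes that every array measured.

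The members did not form a single pattern. Over the 28 pairs of genes the Pearson r across 7 tumours ranged from 0.17 (CD163 with CD68) to 0.97 (AIF1 with MSR1), with a median of 0.57. These values are descriptions over tumours of both groups, whose arrays share their normalization. Groupings drawn after the values were seen cover 7 of the genes. CD163, MSR1 and AIF1 were high in both deleted tumour 3 and wild-type tumour 2 and not in wild-type tumour 3, with r between 0.90 and 0.97. CD68 and CSF1R (r = 0.95) were highest in wild-type tumour 3, followed by deleted tumour 3. C1QA and MRC1 (r = 0.96) were highest in deleted tumour 3 and below their mean in all 3 wild-type tumours. The separation of CD163 from CD68 rested largely on wild-type tumour 3, without which their r was 0.83, the lowest r of any pair 0.43 and the median r 0.82. The median r over all pairs was 0.76 without wild-type tumour 2, 0.44 without deleted tumour 1 and 0.22 without deleted tumour 3. Without deleted tumour 3 the r within the first grouping was 0.98 (AIF1 with MSR1), 0.92 (CD163 with MSR1) and 0.86 (AIF1 with CD163). It was 0.96 for CD68 with CSF1R and 0.90 for C1QA with MRC1. The groupings were less distinct with a wild-type tumour left out. Across them, r without wild-type tumour 3 was 0.93 (AIF1 with CSF1R) and 0.81 (C1QA with CD68), but 0.43 for MRC1 with MSR1. Without wild-type tumour 2 it was 0.92 for C1QA with MSR1, but 0.22 for CD163 with CD68.

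**Figure D3:**
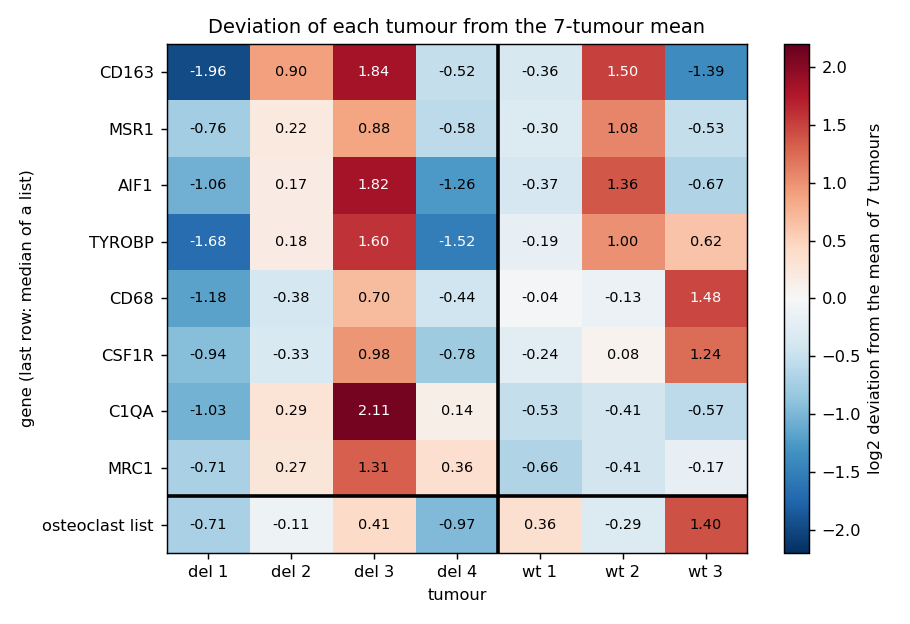
Log2 deviation of each tumour (horizontal axis) from the mean of 7 tumours for each macrophage gene (vertical axis, brightest probe), with the median deviation of 10 osteoclast genes in the last row. Colour and printed number give the deviation; the vertical line parts 4 deleted from 3 wild-type tumours. Deleted tumour 3 is above the mean for all 8 genes, wild-type tumour 2 is at 1.50 for CD163 but -0.13 for CD68, and wild-type tumour 3 is at 1.48 for CD68 but -1.39 for CD163.

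CD68, CSF1R and TYROBP are also expressed by osteoclasts, so the osteoclast genes were set beside the members. Of 15 listed genes, 11 had a probe and 10 were tested (TNFRSF11A was not well above background often enough). Their median deviation was -0.71, -0.11, 0.41 and -0.97 in deleted tumours and 0.36, -0.29 and 1.40 in wild-type tumours. Of the 10 genes, 9 were highest in wild-type tumour 3, against 1407 of the 10114 genes that every array measured. All 10 were lower in deleted tumours with 0 called (CALCR by -0.00027), against 4788 of 10140 lower over all genes. The median difference was -0.93, with 7 to 10 genes lower under other scalings. Without wild-type tumour 3 it was -0.37 with 7 genes lower. ACP5, the tartrate-resistant acid phosphatase of osteoclasts, read 14.34 in wild-type tumour 3, while elsewhere it lay between 8.65 and 11.56. MMP9, a collagen-degrading protease, read 16.84 there and between 11.01 and 14.55 elsewhere.

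CD68 and CSF1R ran with this list across tumours, with Pearson r of 0.90 and 0.88 against its median over 7 tumours. For TYROBP r was 0.65, and for the other 5 members it lay between 0.01 (CD163) and 0.22 (AIF1). Without wild-type tumour 3 the r was 0.76 for CD68, 0.77 for CSF1R and 0.77 for TYROBP, over 6 tumours. For AIF1, CD163, MSR1, C1QA and MRC1 it was then 0.66, 0.57, 0.53, 0.49 and 0.27. The part of osteoclasts in the CD68 and CSF1R values was not tested.

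Markers of other cell types are given as values beside the members. The T cell list (4 genes tested of 10) had a median deviation of 0.30, 0.26, 0.35 and -0.20 in deleted and -0.32, -0.27 and -0.27 in wild-type tumours. Its median difference was 0.50 with 0 called. At a limma unadjusted p below 0.05 there were 3 of its 4 genes, against 771 of 10140 over all genes. Endothelial genes (6 tested of 8) were highest in deleted tumour 3, at 1.12, and had a median difference of 0.38, with all 6 higher. Osteoblast genes (6 tested of 10, COL1A1, COL1A2 and ALPL among them, each well above background in all 7 tumours) had a median difference of -0.64. All 6 of these were lower in the deleted group. The median differences of the neutrophil, dendritic cell, B and plasma cell, and mast cell lists were -0.01, 0.11, 0.12 and -0.25, and the median deviation of adipocyte genes was 3.49 in deleted tumour 4 and below 0 in the other tumours. Their part in the member values was not tested.

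Wild-type tumours 1 and 2 gave the most alike pair of arrays of the series and still differed in a part of the macrophage genes. Over all tested probes their arrays had a Pearson r of 0.987, while the other 20 pairs lay between 0.935 and 0.965. Their median absolute log2 difference was 0.14, and 630 of 32306 probes (1.95%) differed by more than 1. CD163 was higher in wild-type tumour 2 by 1.86, AIF1 by 1.73, MSR1 by 1.38 and TYROBP by 1.19, larger than in 98.8% to 99.7% of probes. CSF1R, MRC1 and C1QA differed by 0.33, 0.26 and 0.12, and CD68 by -0.09. The labels name them as separate dogs of different breeds, and with both counted as 1 tumour the number of member calls was again 0.

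**Figure D4:**
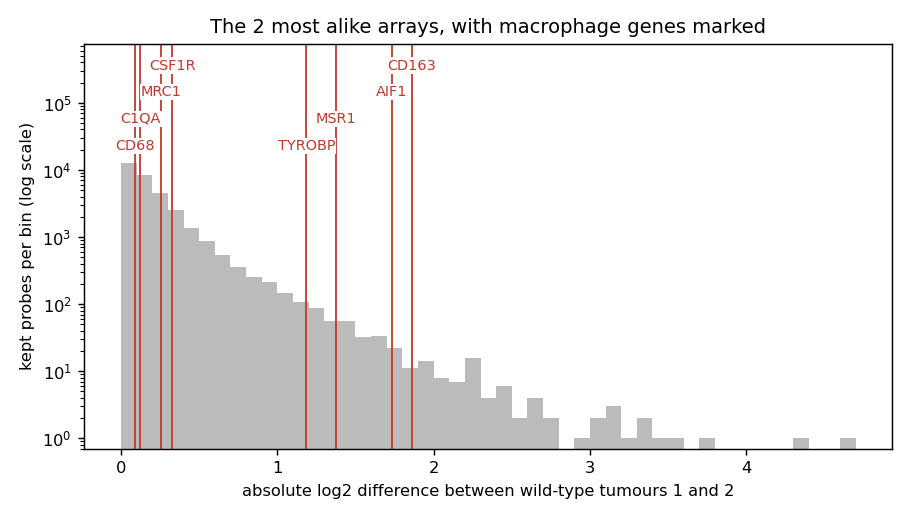
Number of tested probes (vertical axis, log scale) by absolute log2 difference between wild-type tumours 1 and 2 (horizontal axis, bins of 0.1), with the brightest probe of each macrophage gene as a line. CD163, AIF1, MSR1 and TYROBP lie between 1.19 and 1.86, and CD68, C1QA, MRC1 and CSF1R lie between 0.09 and 0.33.

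Genes of the pathways around the members were examined next, from lists given by pathway. None of the 8 lists had a called gene. Of the CSF1R ligands and myeloid transcription factors 8 of 15 were tested, with 6 higher, 2 lower and a median difference of 0.12. IL34, the second CSF1R ligand, read 8.68, 8.02, 9.60 and 8.08 in deleted tumours and 7.13, 7.65 and 7.65 in wild-type tumours. All 4 deleted tumours lay above all 3 wild-type tumours, an arrangement in 1 direction or the other that 8.16% of all probes showed, and the difference of 1.11 (SE 0.40) had a limma adjusted p of 0.631. RUNX1, a transcription factor of blood cell development, differed by 0.64 (SE 0.38). CSF1 itself differed by 0.02 but was well above background in only 3 tumours.

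Among TYROBP partners and ITAM signalling genes 12 of 15 were tested, with 6 higher and 6 lower (3 to 8 higher with 1 tumour left out). The smallest p values were those of PLCG2, a phospholipase (difference -0.27, SE 0.14), and SYK, the kinase that binds phosphorylated ITAMs (-0.43, SE 0.35). TREM2, a TYROBP-coupled receptor that was looked up for its role, read 6.22, 7.83, 8.68 and 6.59 in deleted and 7.33, 9.28 and 6.79 in wild-type tumours. Its 2 highest tumours were the ones that were highest for MSR1.

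Among these 8 lists, complement genes leaned most to 1 side, with 14 of 15 tested genes higher in deleted tumours, 1 lower and a median difference of 0.61. Over all genes 5352 of 10140 were higher, and the list had 0 calls. CFD, complement factor D, differed by 1.45 (SE 0.59, limma adjusted p = 0.676), and C3, the central component, by 0.67 (SE 0.32, limma adjusted p = 0.726). Leaving out 1 tumour at a time gave 12 to 15 higher genes, and the other scalings gave 14 or 15. CFD was highest in deleted tumour 4, at 9.91, where the adipocyte genes were highest too.

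The remaining lists had median differences between -0.07 and 0.14, and with 1 tumour left out the median of each of them took both signs. Genes of the lipopolysaccharide receptor complex of CD14 were higher in 7 of 9 cases, and in 4 to 8 with 1 tumour left out. The 4 were found without deleted tumour 3 and also without wild-type tumour 3. The smallest p values were those of the receptor TLR1 (-0.88, SE 0.45) and the adaptor TICAM1 (0.14, SE 0.10). Other scavenger and lectin receptors were higher in 9 of 15 (6 to 11 with 1 tumour left out), and COLEC12, a collectin scavenger receptor, differed by -0.74 (SE 0.25, limma adjusted p = 0.598) and SCARB2, a lysosomal receptor, by 0.45 (SE 0.27). Haemoglobin and haem handling genes were higher in 5 of 10 (3 to 6 with 1 tumour left out), with HPX, which binds free haem, at -0.30 (SE 0.14) and FTH1, the ferritin heavy chain, at 0.53 (SE 0.30). The second HPX probe differed by 0.09, with the opposite sign.

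Lysosomal genes that go with CD68 were higher in 9 of 19 cases (median -0.01, and 5 to 12 cases with 1 tumour left out), with NPC1, a cholesterol transporter, at 0.45 (SE 0.19) and GLA, alpha-galactosidase, at 0.39 (SE 0.20). Other macrophage and myeloid genes were higher in 11 of 25 (median -0.07, and -0.11 to 0.26 under other scalings), and in 4 to 18 with 1 tumour left out. The 0.26 was found where the median over all genes was 0.22. The chemokine receptor CCR1 was at -0.44 (SE 0.30) and ALOX5AP, the 5-lipoxygenase activating protein, at -0.67 (SE 0.52). In this last list 14 of the 25 genes were highest in deleted tumour 3, 56%, and 12 were lowest in deleted tumour 4. Over the 10114 genes that every array measured, 14.8% were highest in deleted tumour 3 and 1971 were lowest in deleted tumour 4. No gene of it was used to define the members.

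Outside the members, the genes whose values ran most closely with the members' mean deviation over 7 tumours were named by Pearson r. They were RENBP, a renin-binding sugar epimerase (0.98), NPL, an enzyme of sialic acid breakdown (0.98), ZDHHC5, a palmitoyltransferase (0.98), PARVG, a parvin of blood cells (0.97), TMEM173, the innate DNA-sensing adaptor STING (0.97), and PTPN6, the phosphatase SHP-1 (0.97). NPL, for example, read 6.80, 7.72, 9.12 and 7.24 in deleted and 7.54, 8.25 and 7.51 in wild-type tumours. Their differences by DLG2 status lay between -0.42 (TMEM173) and 0.06 (RENBP), with 0 called. With 7 tumours and over 10000 genes, high values of r are found by search, and these are a description.

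Slide and image extraction session could be set beside the groups in part. The arrays lay on 5 slides, of which 1 held deleted tumours 2 and 3 and wild-type tumour 2, and the member genes' median difference within it was 0.06, with 4 higher and 4 lower. The arrays were put into 2 sessions here by the times at which Agilent Feature Extraction read the images, not by RNA extraction. A gap of over 60 minutes started a new session. In session 1 (deleted tumours 2, 3 and 4 and wild-type tumour 2) the median difference was -0.45 with 3 genes higher. In session 2 (deleted tumour 1 and wild-type tumours 1 and 3) it was -0.81 and all 8 genes were lower in deleted tumour 1. C1QA and MRC1 were higher by 1.25 and 1.05 in session 1 and lower by 0.48 and 0.29 in session 2, where deleted tumour 1 stood alone for its group. Wherever a batch holds 1 tumour of a group, these are values without a test.

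The DLG2 probe itself read 10.33, 11.42, 10.47 and 10.81 in deleted tumours and 10.88, 12.02 and 11.73 in wild-type tumours. The groups overlapped, with a difference of -0.79 (SE 0.36, limma adjusted p = 0.706). Its place relative to the deleted stretch was not analysed here, so it does not check the labels. Between 30280 and 34538 probes were well above background on each array, and 0 spots were saturated.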

How the data were processed

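RNA of 7 canine osteosarcomas was measured on 1-colour (Cy3) Agilent arrays, 1 for each tumour, and groups were taken from the labels. The deposited files hold spot and local background intensity on a linear scale, written per the file headers by Agilent Feature Extraction 10.7.3.1. For their own analysis the authors name a multi-array average and a correction for batch, and neither was used here. Gene symbols and canFam2 coordinates are those of the files, and 17 probes received a symbol through the RefSeq table of UU_Cfam_GSD_1.0.

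Mean spot intensity was corrected by normexp (saddle, offset 50; limma 3.58.1, R 4.3.3), quantile-normalized and put on the log2 scale. On deleted tumour 1, 4 spots with a local background over 10000 shifted this correction. Spots whose local background carried an outlier mark (275 to 642 on an array) were therefore given the array's median local background, a step chosen after seeing the data, and the background as given is an alternative. Control spots and 144 outlier values were left out, and replicate spots were averaged. Of 43603 probes, 32309 were well above background on at least 3 arrays and were tested. The probe with the highest mean stood for a gene. Deleted and wild-type tumours were set against each other by limma's moderated test (two-sided, no covariates), called at an unadjusted p below 0.05 with an adjusted p below 0.1 over all probes, and single genes also with an exact permutation test. No p was computed over the members as a set.

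All members were named, and from each related list the 2 genes with the smallest p, then the 6 genes most like the members' mean. Members, lists and alternatives were chosen with earlier results of these data known. Alternatives were other scalings, backgrounds, filters and tests, slide, session, sex label and age as terms, and each tumour left out. The computations were tested on simulated data. The number of arrays limits the precision.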

Additional observations from a re-analysis of the deposited data

How the results depend on the processing

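Over the 26 alternative settings that give calls the number of called member probes was 0 in each. The 3 filters, the methods' t-test and the trend and robust options leave a single gene's difference as it is by construction. Under the other 21 settings 151 of 168 single-gene values had the direction of the reported one and 17 the opposite. Among these settings, the mean over all probes of a gene cannot move C1QA, CD68, MRC1, MSR1 and TYROBP, which have 1 probe each. At an unadjusted p below 0.05 there were at most 2 member probes (with age as a covariate, or without deleted tumour 1 or 3). The median difference of the members took both signs, from -0.80 with the session as a term to 0.40 without wild-type tumour 2. C1QA (0.26 to 1.61), MRC1 (0.13 to 1.20) and TYROBP (-1.57 to -0.11) had 1 direction in every setting, within 95% intervals that included 0 in the reported comparison. The 1.61, 1.20 and -0.11 came from slide as a fixed block. That setting compares only deleted tumours 2 and 3 with wild-type tumour 2, on the 1 slide that held both groups.

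These directions turned. AIF1 was 0.093 with array weights, 0.00487 with wild-type tumours 1 and 2 counted as 1, and 0.14, 0.20 and 0.44 without deleted tumour 1, deleted tumour 4 and wild-type tumour 2. MSR1 was 0.012 with those tumours as 1, 0.41 with the background as given at 75th percentile scaling, and 0.092, 0.031 and 0.36 without the same 3 tumours. CD163 was -0.13 with slide as a fixed block, -0.91 with the session as a term, and -0.13, -0.45 and -0.51 without deleted tumours 2 and 3 and wild-type tumour 3. With slide as a fixed block, and so against wild-type tumour 2 alone, CD68 was 0.29 and CSF1R 0.24. Their values over all settings reached down to -1.73 and -1.59. Leaving out 1 tumour gave -0.83 to 0.44 for AIF1, -0.45 to 0.36 for MSR1, -0.51 to 0.94 for CD163, -1.10 to -0.24 for CD68, -1.04 to -0.19 for CSF1R, and -0.64 to 0.40 for the members' median.

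Calls over all probes rose from 0 to 10 (processed signal, 75th percentile), 4 (processed signal, quantile), 4 (normexp, 75th percentile), 1 (offset 16), 4 (trend and robust), 8 (array weights), 2 (slide as a random block) and 23 (background as given, 75th percentile, 22 of them higher). Leaving out 1 tumour gave 0 to 45 calls, with 45 without wild-type tumour 3. The cause was not tested. With 75th percentile scaling the median over all genes shifted to at most 0.22. No paired analysis was possible because the groups share no sample numbers in the labels.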
